A study of Mus musculus with 12 samples.

Results

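The 10 genes of the MHC class I and immunoproteasome pathway described here are the class I heavy chains H2-K1 and H2-D1, the light chain B2m, the peptide transporter and loading genes Tap1, Tap2 and Tapbp, the immunoproteasome catalytic subunits Psmb8, Psmb9 and Psmb10, and the class I transactivator Nlrc5. They were taken by symbol from the count tables of cardiac macrophages (Mφ), which list 24445 genes, and all 10 were among the 14608 genes with enough counts to be tested. The RNA came from CD14+/CD64+ Mφ sorted by FACS from the hearts of adult C57BL6/J mice, males according to the methods of the study, with 12 libraries in 3 groups of 4. According to the same methods, the sort first gated on CD11b+ cells. Control (Ct) mice carried saline pumps. ECH mice carried pumps that delivered the β-adrenergic agonist isoproterenol (iso) at 30 mg/kg/day for 14 days, the stage of concentric hypertrophy, and HF mice carried the same pumps for 28 days, the stage of heart failure. The mice had no transgene or deletion, with the time each Ct mouse carried its saline pump not given in the sources used here. As many mice as libraries were counted by the study in each group, and each title carries a code of its own, but what the codes stand for is not said, so p-values measure the spread between these libraries. Because whole sorted populations were sequenced, a lower level cannot be told apart between fewer cells that express a gene and less RNA in each cell.

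MHC class I molecules display peptides cut from proteins made inside the cell, and CD8+ T cells read them. The proteasome cuts the proteins, TAP carries the peptides into the endoplasmic reticulum, tapasin and its partners load them, and the heavy chain reaches the cell surface only with its light chain. Interferon-γ is known to raise this pathway as a whole, through IRF1 and the transactivator NLRC5, and to exchange the constitutive catalytic subunits of the proteasome for their immunoproteasome forms. Macrophages carry immunoproteasome subunits at rest.

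The genes are unevenly spread over the genome (GRCm38, GENCODE annotation). On chromosome 17, in or near the MHC, lie 7 of them, Tapbp from 33915899 to 33929292, H2-K1 from 33996017 to 34000347, Psmb9 from 34181987 to 34187764, Tap1 from 34187553 to 34197225, Psmb8 from 34197721 to 34201454, Tap2 from 34203527 to 34216321 and H2-D1 from 35262730 to 35267499. B2m lies on chromosome 2 from 122147686 to 122153083. Nlrc5 and Psmb10 lie on chromosome 8 from 94434356 to 94527272 and from 105935735 to 105938444.

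The 250 bases before the transcription start were read for 8 of the 10 genes from RefSeq (build GRCm38.p6), and 4 of these windows are shown, those of the 3 chains of the surface molecule and that of Tap1, which is shared with a second member. Each is written 5′ to 3′ on the strand of its gene: H2-K1 at chr17:34000348-34000597 on the minus strand, H2-D1 at chr17:35262844-35263093, B2m at chr2:122147437-122147686 and Tap1 at chr17:34187306-34187555, all 3 on the plus strand. Capitals mark letters that match 1 of 4 short motifs on either strand: AANNGAAA (the interferon regulatory factor core), CCAAT (the box bound by NF-Y), TGACG (the core of a CRE) and GGGANNNCC (κB).
H2-K1: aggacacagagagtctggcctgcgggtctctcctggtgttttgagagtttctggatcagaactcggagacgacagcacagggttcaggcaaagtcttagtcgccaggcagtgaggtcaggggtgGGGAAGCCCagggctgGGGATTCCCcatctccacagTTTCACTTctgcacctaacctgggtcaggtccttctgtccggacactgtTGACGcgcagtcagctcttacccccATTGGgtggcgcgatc
H2-D1: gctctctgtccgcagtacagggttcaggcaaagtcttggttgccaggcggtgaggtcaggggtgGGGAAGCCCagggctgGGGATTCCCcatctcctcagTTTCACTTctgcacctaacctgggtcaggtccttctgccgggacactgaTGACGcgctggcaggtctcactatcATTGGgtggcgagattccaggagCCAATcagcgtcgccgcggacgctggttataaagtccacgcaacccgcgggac
B2m: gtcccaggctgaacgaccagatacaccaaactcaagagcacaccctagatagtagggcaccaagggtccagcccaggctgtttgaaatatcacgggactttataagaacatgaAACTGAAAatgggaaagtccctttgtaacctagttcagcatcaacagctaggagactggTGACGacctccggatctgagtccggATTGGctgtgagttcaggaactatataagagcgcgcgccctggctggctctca
Tap1: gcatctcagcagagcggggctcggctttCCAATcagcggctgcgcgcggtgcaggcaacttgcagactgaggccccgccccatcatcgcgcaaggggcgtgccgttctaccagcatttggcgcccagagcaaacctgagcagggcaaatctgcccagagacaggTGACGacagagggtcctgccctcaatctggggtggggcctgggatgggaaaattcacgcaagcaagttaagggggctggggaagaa
The H2-K1 and H2-D1 windows matched at 170 of 190 aligned bases (89.5%), with the same order of κB, interferon regulatory factor, TGACG and CCAAT letters. The B2m window held the interferon regulatory factor, TGACG and CCAAT letters in that order too. Tap1 and Psmb9 are transcribed away from each other from starts 226 bases apart, so the windows of both cover the same 225 bases. The interferon regulatory factor core was in 3 of the 8 windows (H2-K1, H2-D1 and B2m) against 21.6% of 27025 promoters of the same length, CCAAT in 6 of 8 against 34.5%, and TGACG in 5 of 8 against 17.9%. The κB letters were in 2 of 8 against 15.5%. A match is a run of letters, not a shown binding site, and no window was read for Tap2 and Nlrc5.

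Between 88466559 and 111180291 counts per library were assigned to genes, and between 13600 and 15940 genes had a count. HF 1 (13600 genes) and Ct 2 (14489 genes) had the fewest. Levels are given as CPM, counts scaled to the size of each library, after TMM normalisation. The 8 macrophage markers were at 21250 to 31627 CPM in sum in all 12 libraries, none at 0. Of the lymphocyte markers, 5 B cell markers summed to 96.6 to 446 CPM in Ct, above 34.3 to 79.8 CPM in ECH and 50.1 to 74.6 CPM in HF Mφ. The sums of 7 T and NK cell markers overlapped between all groups, at 13.5 to 64.0, 2.73 to 28.4 and 8.90 to 19.8 CPM. Neutrophil markers (6 genes) summed to 394 to 1637 CPM in Ct, against 167 to 471 CPM in ECH and 146 to 1319 CPM in HF, Ly6C-high monocyte markers (5 genes) to 237 to 547, 500 to 672 and 516 to 880 CPM, and fibroblast markers (6 genes) to 28.0 to 188, 80.1 to 419 and 81.1 to 240.1 CPM. Dendritic cell markers summed to 68.5 to 98.8 CPM in Ct, which overlapped with 81.5 to 129 CPM in ECH but not with 104 to 138 CPM in HF. Most of that sum was Cd209a (45.2 CPM in Ct and 84.2 CPM in HF on average), and of the 6 dendritic cell genes 3 were higher and 3 lower in HF than in Ct, with Siglech, Xcr1 and Clec9a the lower ones. Most of the monocyte sum was Ccr2 (319, 424 and 595 CPM on average in Ct, ECH and HF), and of its 5 genes 3 were higher and 2 lower in HF than in Ct, with Ly6c2 at 9.52 and 9.30 CPM. The sums of endothelial (25.8 to 108 CPM) and cardiomyocyte markers (51.5 to 169 CPM) overlapped between all groups. Lymphocytes and dendritic cells also express class I genes, and the part of any of these markers in the values below was not tested. The sample numbers in the library descriptions run from 1 to 6 and then repeat, which sorts all Ct libraries with ECH 1 and ECH 2, and all HF libraries with ECH 3 and ECH 4. Neither the labels nor the methods name these sets, so they are inferred, and between HF and Ct set and group cannot be told apart without the ECH libraries. The first part of the code in the titles is shared by Ct 1 and 2, by Ct 3 and 4, by ECH 3 and 4 and by HF 1 and 2, so that ECH 3 and 4 share both this code and their set, whereas ECH 1 and 2 have different codes.

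At rest the class I pathway was strongly expressed in cardiac Mφ, and B2m was the most abundant of its 10 genes. Compared per kilobase of exon in Ct, B2m stood at 3548 ± 155 CPM per kilobase (SD, n = 4), followed by H2-K1 at 886 ± 153 and H2-D1 at 732 ± 72.1, which overlapped. Psmb8 at 134 ± 12.99 and Tapbp at 127 ± 6.02 CPM per kilobase came next and also overlapped. Psmb10 at 69.0 ± 15.2 overlapped with Psmb9 at 49.0 ± 17.1, Psmb9 with Tap2 at 37.7 ± 3.79, and Tap2 with Tap1 at 28.9 ± 4.62. Nlrc5, the regulator, was lowest at 3.58 ± 0.885 CPM per kilobase. By mean log2 CPM over all 12 libraries, not Ct alone, B2m ranked 22nd, H2-D1 58th and H2-K1 69th of the genes tested, whereas Nlrc5 ranked 5620th.

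None of the 10 genes passed the test in any comparison. The test was edgeR's quasi-likelihood test in 1 fit of the 12 libraries, with p-values adjusted over the 14608 genes (false discovery rate, FDR) and a call at an FDR under 0.05. It called 0 of 10 between ECH and Ct, where 0.472% of all genes were called (48 higher and 21 lower), 0 of 10 between HF and Ct against 0.513% (50 higher and 25 lower), and 0 of 10 between ECH and HF against 0%, with a lowest FDR of 0.338 over all genes. At an unadjusted p under 0.05, B2m alone passed between ECH and Ct, 1 of 10, which is near the 11.9% of all genes. It was 0 of 10 against 16.1% between HF and Ct and 0 of 10 against 7.98% between ECH and HF. DESeq2 called 1 of 10 between ECH and Ct (B2m, FDR 0.0301), against 3.37% of all genes by the same tool. For B2m, edgeR's likelihood ratio test, which called 2.51% of all genes, gave an FDR of 0.272, and limma-voom, which called 0.945%, gave 0.187. None of these tools called another member in any comparison. Without 1 library the number of genes called between ECH and Ct moved to between 11 (without Ct 1) and 130 (without Ct 3), and between HF and Ct to between 16 (without Ct 1) and 162 (without Ct 3), while no member was called.

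The intervals were narrow for most of the pathway. Between ECH and Ct and between HF and Ct, the 95% interval of the fold change lay within a 2-fold change either way for 10 of 10 genes, against 50.4% and 48.9% of all genes tested. Between ECH and HF this held for 9 of 10 against 53.3%, and the exception was Tap1. The median log2 fold change of the 10 genes was 0.043 between ECH and Ct, −0.011 between HF and Ct and 0.085 between ECH and HF, beside 0.010, −0.015 and 0.018 over all genes.

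**Figure D1:**
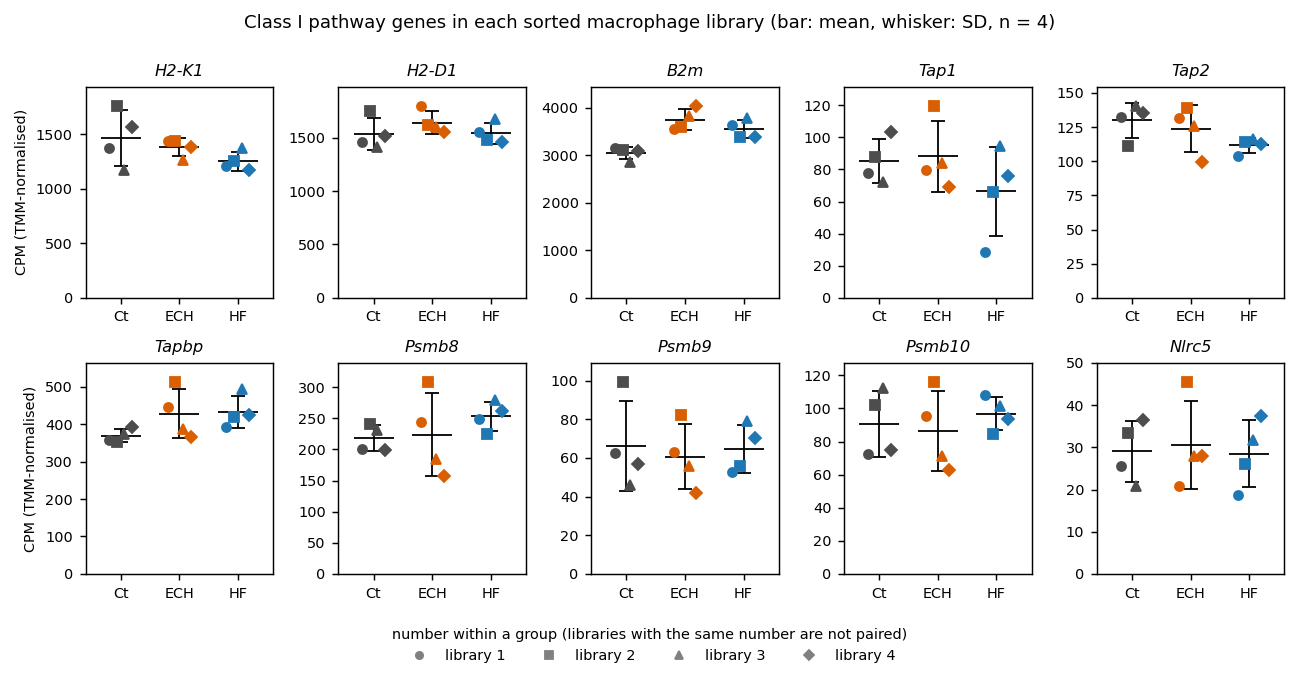
Level of each of the 10 genes in TMM-normalised CPM (y axis, from 0) in the 4 libraries of each group (x axis), with 1 marker per library, its shape giving the library number, and the mean and SD as a bar and whisker. In the B2m panel the 4 ECH libraries (3550.3 to 4041 CPM) and the 4 HF libraries (3395 to 3778 CPM) sit above the 4 Ct libraries (2855 to 3151 CPM), and in the Tap1 panel HF 1 sits alone at 28.7 CPM.

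B2m, the light chain that every class I molecule needs, was the 1 member whose libraries did not overlap with those of Ct. The Ct libraries 1 to 4 held it at 3151, 3107, 2855 and 3091 CPM, the ECH libraries 1 to 4 at 3550.3, 3599.6, 3828 and 4041 CPM, and the HF libraries 1 to 4 at 3647, 3396, 3778 and 3395 CPM. All 4 ECH and all 4 HF libraries were above all 4 Ct libraries, whereas ECH and HF overlapped. The difference between ECH and Ct was 0.30 on the log2 scale (SE 0.11, 95% interval 0.07 to 0.53, edgeR FDR 0.270), a mean of 3755 ± 226 against 3051 ± 133 CPM. Between HF and Ct it was 0.22 (SE 0.11, interval −0.01 to 0.45, edgeR FDR 0.329), at 3554 ± 191 CPM in HF, with the same Ct libraries on the other side. Groups that did not overlap were seen for 1 of the 10 genes in each comparison with Ct, against 7.97% of all genes between ECH and Ct and 9.04% between HF and Ct, and for 0 of 10 against 6.92% between ECH and HF. The counts against Ct are thus near the shares over all genes. Within the inferred sets the B2m difference was 0.22 between ECH 1 and 2 and the Ct libraries (edgeR FDR 0.951) and 0.15 between ECH 3 and 4 and the HF libraries (FDR 0.443). With the set as a covariate in the fit of all libraries, the difference between HF and Ct was 0.082 (edgeR FDR 0.881).

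The heavy chains overlapped between all groups, unlike the light chain, and this difference between the chains was not tested. H2-K1, which encodes the K molecule, was at 1373, 1760.4, 1169 and 1564 CPM in Ct, then at 1438, 1441, 1267 and 1383 CPM in ECH, and at 1210.4, 1257, 1374 and 1169.9 CPM in HF. The Ct libraries spanned all ECH and HF libraries, and Ct 2 was the highest of the 12. Its difference from Ct was −0.09 in ECH (SE 0.13, edgeR FDR 0.852) and −0.23 in HF (SE 0.13, interval −0.52 to 0.06, edgeR FDR 0.436), the latter −0.11 with the inferred set as a covariate (edgeR FDR 0.889). H2-D1, which encodes the D molecule, was at 1462, 1756, 1415 and 1519 CPM in Ct, then at 1799.7, 1620.3, 1600.4 and 1555 CPM in ECH, and at 1556, 1483, 1677 and 1458 CPM in HF. All 3 groups overlapped, with means of 1538 ± 151, 1644 ± 107 and 1544 ± 98.5 CPM. Its difference was 0.10 between ECH and Ct (interval −0.15 to 0.34, edgeR FDR 0.790) and 0.01 between HF and Ct (interval −0.24 to 0.25, edgeR FDR 0.989), and 0.15 and 0.12 with that covariate (edgeR FDRs 0.817 and 0.832). H2-K1 and H2-D1 share exon stretches of 75 bases, the read length, with other class I genes such as H2-Q10 and H2-Q1, 3.1% of the stretches of H2-K1 and 5.56% of those of H2-D1. B2m shares none, so its counts could not be split with another gene in this way.

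The chains of the peptide transporter differed in their spread. Tap1 encodes the first chain of the transporter and was at 78.1, 87.9, 71.9 and 103 CPM in Ct, then at 79.6, 119.6, 84.3 and 69.1 CPM in ECH, and at 28.7, 66.1, 94.8 and 75.8 CPM in HF. HF 1, the library with the fewest genes detected, was the lowest by far and ECH 2 the highest, a 4.16-fold range. The Tap1 difference between HF and Ct was −0.36 (SE 0.29, interval −0.98 to 0.26, edgeR FDR 0.587), without HF 1 it was −0.11, and with the inferred set as a covariate it turned to 0.015 (edgeR FDR 0.995). Between ECH and HF it was 0.41 (SE 0.29, interval −0.21 to 1.03, edgeR FDR 0.781), and 0.16 without HF 1. Tap2, the second chain, was at 133, 110.9, 140.5 and 136 CPM in Ct, then at 132, 139, 126 and 99.5 CPM in ECH, and at 104, 114, 116 and 113 CPM in HF. The HF libraries lay below 3 of the 4 Ct libraries but overlapped with Ct 2, and the difference was −0.22 (SE 0.13, interval −0.49 to 0.06, edgeR FDR 0.428). In ECH it was −0.07 (edgeR FDR 0.883). Both Tap2 differences turned positive with the set as a covariate, to 0.046 in HF and 0.058 in ECH (edgeR FDRs 0.955 and 0.952).

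Tapbp encodes tapasin, which bridges the transporter and the empty heavy chain. Its level was 359, 353, 374 and 392 CPM in Ct, against 444, 512, 387 and 365 CPM in ECH and 391, 420.3, 493 and 423 CPM in HF. HF 1 and Ct 4 were all that kept HF and Ct from separating, with 391.1 against 391.9 CPM. The difference was 0.21 between ECH and Ct (SE 0.13, interval −0.07 to 0.49, edgeR FDR 0.564) and 0.23 between HF and Ct (SE 0.13, interval −0.05 to 0.50, edgeR FDR 0.419), and with the set as a covariate 0.37 and 0.57 (edgeR FDRs 0.481 and 0.148). Antisense transcripts overlap the exons of several of these genes, Gm19412 over 23.5% of Tapbp, Gm15821 over 15% of Tap2, Gm20496 over 11.4% of Psmb8, and Tap1 and Psmb9 over each other by 212 bases. With the strand setting of the counting not given in the sources used here, these counts are uncertain to that extent.

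**Figure D2:**
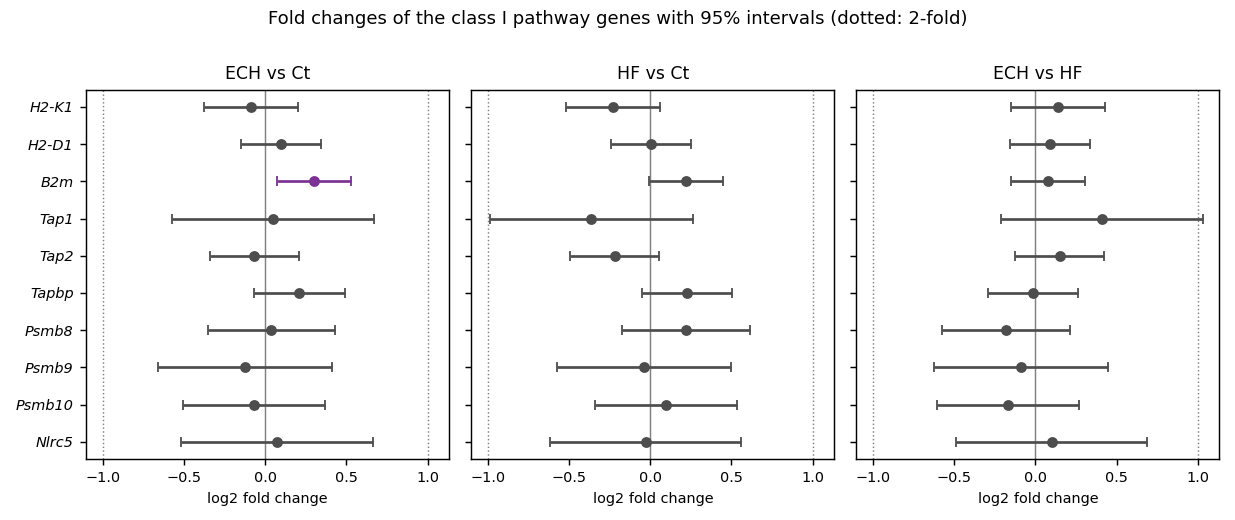
log2 fold change (x axis) of the 10 genes (y axis) between ECH and Ct, HF and Ct, and ECH and HF, with 95% intervals from the edgeR fit and dotted lines at a 2-fold change. The interval of B2m between ECH and Ct (0.07 to 0.53) is the one that leaves out 0, and the interval of Tap1 between ECH and HF is the one that passes a 2-fold line.

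The immunoproteasome subunits differed more among the ECH libraries than between the groups. Psmb8 (β5i) was at 200.1, 241, 231 and 199.7 CPM in Ct, then at 243, 308, 185 and 158 CPM in ECH, and at 249, 224, 280.0 and 262 CPM in HF. ECH 1 and 2 were above all Ct libraries and ECH 3 and 4 below all of them, with a mean of 224 ± 66.7 CPM in ECH against 218 ± 21.1 CPM in Ct. Psmb10 (β2i) followed the same order in ECH, at 72.3, 102, 113 and 75.0 CPM in Ct, then at 95.2, 116, 71.4 and 62.6 CPM in ECH, and at 108, 84.6, 101 and 93.4 CPM in HF. Psmb9 (β1i) was at 62.7, 99.3, 46.2 and 56.7 CPM in Ct, then at 62.9, 82.3, 55.7 and 42.0 CPM in ECH, and at 52.8, 55.8, 79.1 and 70.2 CPM in HF. All 3 subunits overlapped between all groups. In ECH against Ct their log2 fold changes were 0.04, −0.07 and −0.12 for Psmb8, Psmb10 and Psmb9, with edgeR FDRs of 0.962, 0.930 and 0.892. In HF against Ct they were 0.22, 0.10 and −0.04, with FDRs of 0.607, 0.859 and 0.961. With the inferred set as a covariate, these HF differences became 0.90, 0.75 and 0.53 (edgeR FDRs 0.0609, 0.204 and 0.583).

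The split of the immunoproteasome subunits among the ECH libraries coincided with the inferred sets. The mean of ECH 1 and 2 over that of ECH 3 and 4 was 1.61 for Psmb8, 1.58 for Psmb10, 1.49 for Psmb9, 1.30 for Tap1, 1.27 for Tapbp, 1.2003 for Tap2, 1.18 for Nlrc5, 1.09 for H2-K1, 1.08 for H2-D1 and 0.909 for B2m. For Tap1 and Nlrc5 the ratio rested on ECH 2. ECH 1 (79.6 and 20.8 CPM) lay below ECH 3 (84.3 and 28.0 CPM), so these genes did not split by set. Compared with HF inside their own set, ECH 3 and 4 had a Psmb8 difference of −0.57 (edgeR FDR 0.0457 over that smaller fit) and a Psmb10 difference of −0.53 (FDR 0.0647), where all libraries gave −0.18 and −0.17 (edgeR FDRs 0.889 and 0.917). Psmb8 was the 1 member of 10 called there, against 6.47% of all genes in that fit. Compared with Ct inside their own set, ECH 1 and 2 had differences of 0.33 for Psmb8 and 0.21 for Psmb10 (edgeR FDRs 0.947 and 0.951).

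Each immunoproteasome subunit takes the place of 1 constitutive subunit, and the ratio of both within a library needs no scaling between libraries. Per kilobase of exon, Psmb8 over Psmb5 was 1.75 ± 0.398 in Ct, 1.66 ± 0.412 in ECH and 1.59 ± 0.159 in HF (SD, n = 4). Psmb10 over Psmb7 was 1.70 ± 0.452, 1.55 ± 0.153 and 1.41 ± 0.137, while Psmb9 over Psmb6 stayed below 1 in every library, at 0.297 ± 0.0744, 0.241 ± 0.0407 and 0.213 ± 0.0387. The groups overlapped in all 9 comparisons. For Psmb9 over Psmb6 the overlap with Ct rested on Ct 3 (0.186), as the other Ct libraries were at 0.322 to 0.350, and without Ct 3 the log2 difference of ECH from Ct went from −0.27 to −0.48. The smallest p in the 9 two-sided exact permutation tests was 0.114, for Psmb9 over Psmb6 between HF and Ct (−0.45 on the log2 scale), with a Benjamini-Hochberg adjusted value of 0.669 over the 9 tests, and the smallest p this design allows is 0.0286. The constitutive subunits themselves had positive differences between HF and Ct, 0.30 for Psmb5, 0.41 for Psmb6 and 0.34 for Psmb7, none of which passed the test (lowest edgeR FDR 0.274).

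**Figure D3:**
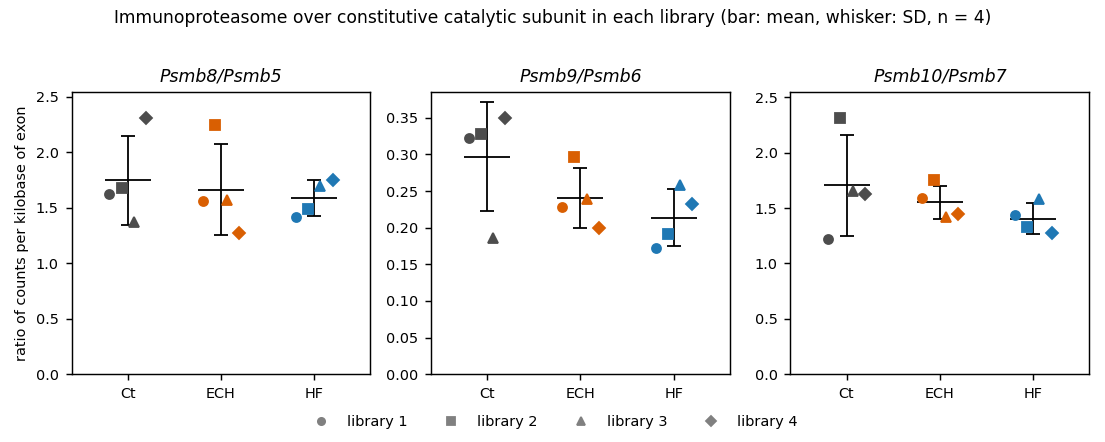
Ratio of each immunoproteasome subunit to the constitutive subunit it replaces, in counts per kilobase of exon (y axis, from 0), in the 4 libraries of each group (x axis), with 1 marker per library and the mean and SD as a bar and whisker. Psmb8 and Psmb10 exceed Psmb5 and Psmb7 in every library, with ratios above 1, Psmb9 lies below Psmb6 in every library, and all groups overlap.

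Nlrc5, the transactivator of class I promoters, was at 25.5, 33.4, 20.8 and 36.6 CPM in Ct, then at 20.8, 45.5, 28.0 and 28.0 CPM in ECH, and at 18.8, 26.2, 31.7 and 37.4 CPM in HF. Its level varied 2.42-fold over the 12 libraries, and the groups overlapped almost fully. Its difference was 0.07 between ECH and Ct (interval −0.52 to 0.66, edgeR FDR 0.948) and −0.03 between HF and Ct (interval −0.62 to 0.56, edgeR FDR 0.976). With the inferred set as a covariate the value for HF was 0.21 (edgeR FDR 0.899).

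Within groups, B2m and H2-D1 varied less than most of the 500 genes nearest to them in level. Tap1 varied more than most, with HF 1 included. The SD of log2 CPM within groups was 0.076 for B2m, at the 0.8th percentile of the 500 genes nearest to it in level, and 0.11 for H2-D1, at the 3.4th. As B2m ranked 22nd, H2-D1 58th and H2-K1 69th in level, most of the genes nearest to them were lower in level. Their percentiles are therefore not a comparison with genes of equal level. For H2-K1, Tap2 and Tapbp it lay at the 17.6th, 17th and 16.4th percentile of the genes nearest in level, for Psmb8, Psmb10, Nlrc5 and Psmb9 at percentiles 61.8, 75.8, 77.2 and 82.8, and for Tap1 at percentile 95. The Tap1 value includes HF 1, at 28.7 CPM against 66.1, 94.8 and 75.8 CPM in the other HF libraries. HF 1 also had the fewest genes detected, and the spread of Tap1 without it was not tested.

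Across the 12 libraries the 10 genes moved together only in part. Over the 45 pairs of members the median Pearson r of log2 CPM was 0.230, from −0.519 to 0.895, and 33 pairs had a positive r. These are descriptions over 12 points that share libraries, scaling and groups. The closest pair was Psmb8 and Psmb10 (r 0.895, Spearman's rho 0.797, r 0.809 without ECH 2 and ECH 4), which lie on different chromosomes. Tap1 and Nlrc5 followed with r 0.728 (rho 0.650, r 0.524 without HF 1 and ECH 2), then Tapbp and Psmb8 with r 0.723 (rho 0.664, r 0.448 without ECH 2 and HF 3). H2-K1 and H2-D1, with the like promoter windows shown above, had r 0.638 (rho 0.671, r 0.375 without Ct 2 and Ct 3). B2m had r −0.091 (rho −0.084) against the mean of the other members, and its r with single members ran from −0.519 with Tap2 to 0.368 with Tapbp. Its r with H2-D1 was 0.366 (rho 0.434), and 0.764 without ECH 1 and Ct 2. Without Ct 3 and ECH 4, the r of B2m was −0.136 with Tap2 and 0.589 with Tapbp. On deviations from the group means it was −0.620 with Tap2, −0.344 with Tapbp and 0.189 with H2-D1.

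**Figure D4:**
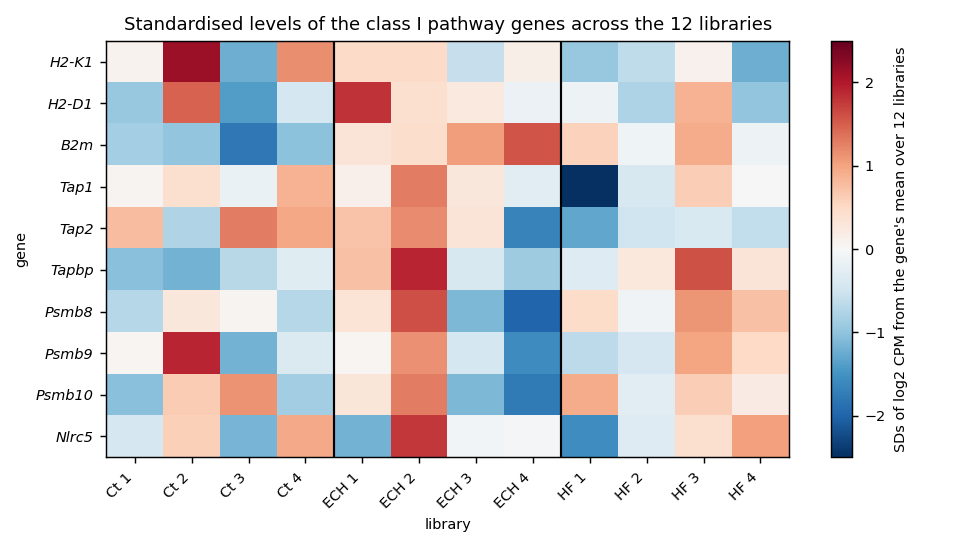
Level of each of the 10 genes (rows) in each of the 12 libraries (columns), as SDs of log2 CPM from the mean of the gene over all libraries, with black lines between Ct, ECH and HF. ECH 2 is red in most rows and ECH 4 blue in the rows of Psmb8, Psmb9, Psmb10 and Tap2, whereas the B2m row is blue in Ct and red in ECH.

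The mean of the standardised levels of the 10 genes was highest in ECH 2 (1.15) and lowest in ECH 4 (−0.66). Of the other 14598 genes tested, 5 followed it most closely over the 12 libraries. Parp10, an ADP-ribosyltransferase, had r 0.826 (rho 0.783, r 0.762 without ECH 2 and HF 3) at 34.5 to 52.6 CPM, and Tapbpl, which encodes the tapasin-related peptide editor TAPBPR, had r 0.805 (rho 0.727, r 0.675 without these libraries) at 32.5 to 59.8 CPM. The remaining genes, Flnc (r 0.846), Col12a1 (r 0.830) and Tnfsf8 (r 0.796), were at low levels, with means of 0.299, 0.206 and 0.974 CPM. Flnc and Col12a1 were at 0 CPM at their lowest, whereas Tnfsf8 ran from 0.194 to 2.59 CPM.

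The rest of the class I pathway held no gene past the test either. Of 17 other class I heavy chains, 11 had enough counts to be tested, of which 4 were higher and 7 lower in ECH and likewise in HF than in Ct, 0 of them called by edgeR. H2-Q4 was at 11.8 ± 1.36 CPM in HF against 18.98 ± 3.57 CPM in Ct (−0.68, SE 0.21, edgeR FDR 0.169). H2-Q10 shares stretches of sequence with H2-K1, and its value in Ct rested on Ct 2 with 36.5 CPM against 4.45 to 8.24 CPM in the other Ct libraries (−2.34 in ECH, edgeR FDR 0.236).

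Of the 10 genes of peptide loading and trimming, 7 were higher in ECH and 8 higher in HF than in Ct, 0 of them called. Calr, the calreticulin of the loading complex, was at 331, 281, 443 and 294 CPM in Ct and at 621, 607, 618 and 684 CPM in HF, with no overlap (0.91, SE 0.30, edgeR FDR 0.184). Pdia3, the disulfide isomerase ERp57 that pairs with tapasin, was at 498 ± 87.8 CPM in Ct and 755 ± 104 CPM in HF, also with no overlap (0.60, SE 0.21, edgeR FDR 0.209). Both serve the folding of glycoproteins at large and not class I alone. In ECH, Calr split like Psmb8, with 541 and 635 CPM in ECH 1 and 2 and 259 and 205 CPM in ECH 3 and 4.

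Of 9 genes of the proteasome activator and of proteasome assembly, 2 were higher and 7 lower in ECH, and 7 higher and 2 lower in HF than in Ct, 0 of them called. The lowest p-values were those of Psmg4, an assembly chaperone, with −0.54 between ECH and HF (SE 0.21, edgeR FDR 0.576), and of Pomp, which completes new proteasomes, with −0.40 (SE 0.18, edgeR FDR 0.605). Of 21 partners of the transactivator and genes of interferon signalling, 13 were higher and 8 lower in ECH, and 10 higher and 11 lower in HF than in Ct, 0 of them called. Jak2, a kinase of the interferon-γ receptor, was at 83.3 ± 16.0 CPM in ECH and 55.7 ± 11.4 CPM in HF (0.58, SE 0.17, edgeR FDR 0.534). Socs1, the feedback inhibitor of that receptor, did not pass the test, with 20.4 ± 8.37 CPM in Ct against 9.97 ± 5.10 CPM in ECH and 11.2 ± 2.88 CPM in HF (−1.03 and −0.87, edgeR FDRs 0.324 and 0.311). Irf1, the interferon-γ factor named above and chosen here after its values were seen, was at 573 ± 147 CPM in Ct against 335 ± 156 CPM in ECH and 337 ± 112 CPM in HF, and its libraries overlapped between the groups (−0.77 in both, edgeR FDRs 0.377 and 0.282).

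The class II genes, which present peptides taken up from outside, served as a contrast. All 10 of them had lower means in ECH than in Ct, with a median of −0.69, and in HF than in Ct, with a median of −0.31, from the same Ct libraries. In ECH against Ct, 10 of 10 were under an unadjusted p of 0.05 (11.9% of all genes), but 0 of 10 were called by edgeR's quasi-likelihood test (0.472%), 4 by its likelihood ratio test (2.51%), 5 by DESeq2 (3.37%) and 0 by limma-voom (0.945%). The count under that unadjusted p fell to 4 of 10 with the inferred set as a covariate (1153 of 14608 genes). It was 2 of 10 within 1 set (747 of 14838 genes). Without ECH 3 it was 6 of 10 (1201 of 14936 genes), and likewise without ECH 4 (1424 of 14909 genes). All 10 stayed lower in ECH in these fits. In HF against Ct the direction depended on the fit, with 4 of 10 lower and a median of 0.064 when the inferred set was a covariate, and 7 of 10 lower without Ct 2 and likewise without HF 2. Cd74, the invariant chain, was at 15578 ± 822 CPM in Ct and 9955 ± 1848 CPM in ECH, with no overlap (−0.65, SE 0.16, edgeR FDR 0.101), and H2-DMb2 was at 20.8 ± 11.2 and 8.59 ± 1.38 CPM (−1.27, SE 0.32, edgeR FDR 0.115). As B cells and dendritic cells carry class II as well, the lower sums of B cell markers in ECH and HF stand beside these values, with dendritic cell genes in both directions in HF, and their part was not tested.

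**Figure D5:**
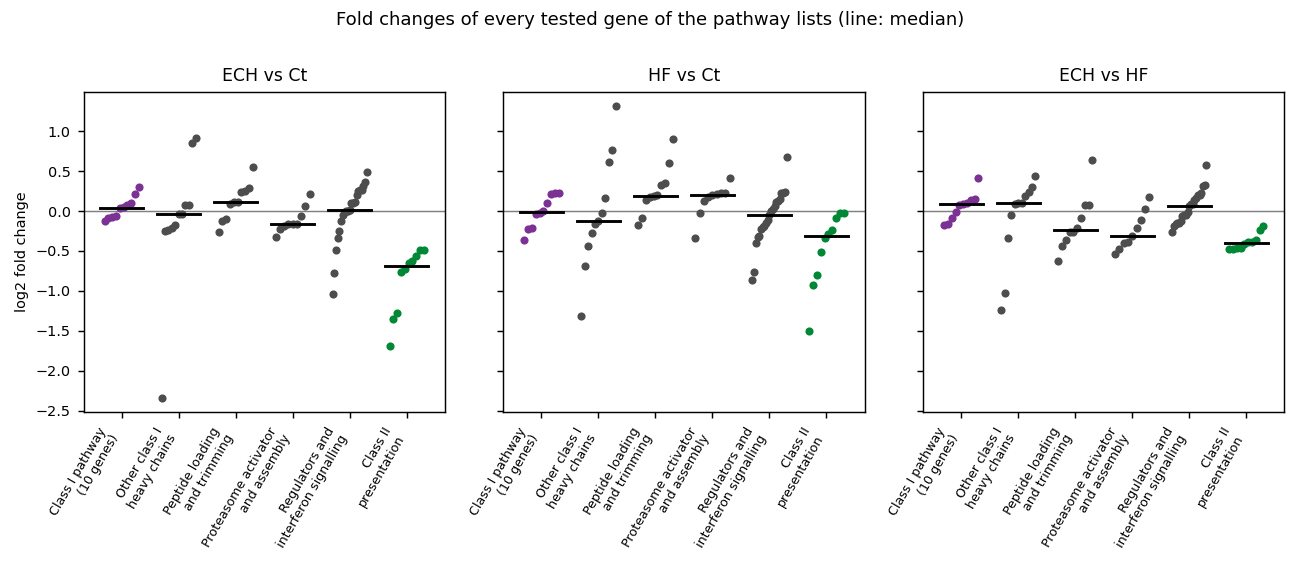
log2 fold change (y axis) of every tested gene of 6 gene lists (x axis) in the 3 comparisons, with 1 point per gene and a line at the median. The 10 class I pathway genes lie between −0.12 and 0.30 in ECH against Ct, and the 10 class II genes lie between −1.69 and −0.48.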

How the data were processed

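RNA of sorted Mφ was made into cDNA with the SMART-Seq v4 kit and sequenced as pairs of 75-base reads on a NextSeq 500. According to the methods and the submitters' processing notes, the authors checked reads with FastQC, trimmed them with Trimmomatic, aligned them to mm10 with TopHat2 and counted them per gene with featureCounts, and the files as deposited hold raw counts, not normalised. The sources used here do not give tool versions, annotation or strand setting.

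The analysis of the counts ran in R 4.3.3, with edgeR 4.0.16 (TMM scaling, filterByExpr by group, quasi-likelihood test, Benjamini-Hochberg adjustment over 14608 genes). DESeq2 1.42.0 and limma 3.58.1 served as alternatives. The edgeR fit was tested on simulated data. Likeness and spread used log2 of CPM plus 0.1. Groups came from the labels. Intervals are 95% intervals of the fit.

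The 10 genes and the lists were chosen with earlier results of these data known. Besides the 10 genes, the text names from each list the genes called, or else the 2 with the lowest p over the 3 comparisons, the 3 constitutive subunits, and the 5 genes most like the members' mean. Of the marker lists, 5 of 6 B cell and 7 of 8 T and NK cell genes were used. Positions and exon lengths came from GENCODE, shared stretches from all transcripts cut into 75 bases (Python 3.11.15, matplotlib 3.10.9), and promoter windows from RefSeq. Protein sequences were not used here. Alternatives covered scaling, test, filter, samples in the fit, replicate number, inferred set, call rule and each library left out.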

Additional observations from a re-analysis of the deposited data

Results flagged for a closer look

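The ratio of Psmb9 to Psmb6 in Ct 3 was 0.186 per kilobase of exon, far from the 0.322 to 0.350 of the other Ct libraries by Dixon's criterion for 4 values. It was 1 of 39 groups of 4 checked, and chance flags about 1 in 20 such groups. Without Ct 3 the difference of this ratio was −0.66 between HF and Ct and −0.48 between ECH and Ct on the log2 scale.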

How the results depend on the processing

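Of the 10 genes, 1 was called by DESeq2 between ECH and Ct (B2m) and 1 between ECH and HF in the libraries of 1 inferred set (Psmb8), and 0 under the other alternatives, including FDR under 0.05 with at least a 2-fold change. The B2m difference kept its sign under all alternatives, at 0.22 to 0.33 between ECH and Ct (FDR 0.0301 to 0.951) and 0.08 to 0.24 between HF and Ct. The numbers of all genes called in ECH vs Ct, HF vs Ct and ECH vs HF became 480, 713 and 70 by DESeq2, 367, 487 and 62 by the likelihood ratio test, and 25, 220 and 434 with the inferred set as covariate. By limma-voom they became 138 and 307 in the first pair of comparisons, and with libraries of 1 set 1 in ECH vs Ct and 962 in ECH vs HF. Fitting only the groups compared left 8 in ECH vs Ct. Leaving out 1 library gave 11 to 130 in ECH vs Ct and 16 to 162 in HF vs Ct. The cause of these shifts was not tested.

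Of the 680 member fold changes under alternatives, 55 had the opposite sign, none of them called. Same-numbered libraries did not deviate together (correlations −0.076 to 0.083), so the numbers were not read as pairs, and a replicate block left 24 genes called in ECH vs Ct and 19 in HF vs Ct and gave Psmb9 0.0264 in HF vs Ct.
With the set as covariate, ECH vs Ct became 0.0579 for Tap2, 0.13 for Psmb9 and 0.22 for Psmb10, HF vs Ct 0.0146 for Tap1, 0.0457 for Tap2, 0.53 for Psmb9 and 0.21 for Nlrc5, and ECH vs HF −0.0253 for Nlrc5. Psmb8 in HF vs Ct then stood at 0.90 (FDR 0.0609).
Within 1 set, ECH vs Ct became 0.0492 for Tap2, 0.13 for Psmb9 and 0.21 for Psmb10, ECH vs HF −0.0271 for Nlrc5, and the log2 ratios 0.13 (Psmb8/Psmb5, ECH vs Ct), −0.16 (Psmb8/Psmb5, ECH vs HF) and 0.0065 (Psmb10/Psmb7, ECH vs Ct).
By limma-voom, Psmb9 became 0.0554 in ECH vs Ct and 0.19 in HF vs Ct, Psmb10 0.0946 in ECH vs Ct, and Nlrc5 0.13 in HF vs Ct and −0.0367 in ECH vs HF. Genes over 1 CPM in 4 libraries gave H2-D1 −0.00803 in HF vs Ct.
Without Ct 2 and HF 1, ECH vs Ct became 0.0033 for H2-K1 and 0.13 for Psmb9, HF vs Ct 0.30 for Psmb9 and 0.19 for Nlrc5, and ECH vs HF −0.0575 for Nlrc5.
Leaving out 1 library, ECH vs Ct ranged from −0.18 to 0.0146 for H2-K1, −0.18 to 0.22 for Nlrc5, −0.24 to 0.0587 for Psmb10, −0.16 to 0.17 for Psmb8, −0.31 to 0.14 for Psmb9, −0.13 to 0.15 for Tap1 and −0.14 to 0.0248 for Tap2. HF vs Ct ranged from −0.0340 to 0.0752 for H2-D1, −0.19 to 0.13 for Nlrc5 and −0.18 to 0.22 for Psmb9, and ECH vs HF from −0.15 to 0.26 for Nlrc5, −0.27 to 0.0551 for Psmb9 and −0.11 to 0.0535 for Tapbp. The log2 ratio of Psmb8/Psmb5 ranged from −0.23 to 0.0669 (ECH vs Ct), −0.22 to 0.0266 (HF vs Ct) and −0.11 to 0.16 (ECH vs HF), and that of Psmb10/Psmb7 from −0.25 to 0.0555 (ECH vs Ct).

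With 4 libraries a group, a ratio test cannot give a p below 0.0286. Each of the 10 genes had 1963 counts or more in every library, but reads of amplified cDNA without molecular identifiers are not independent molecules, and the effect of depth was not tested.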
